A study of Mus musculus with 9 samples.

Results

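Sirpa, its ligand Cd47, the sialic acid-binding receptors Cd22, Siglecg, Cd33, Siglece and Siglec1, and Cd300a are receptors and a ligand that tune the activity of myeloid and lymphoid cells. These 8 genes were taken by name from the 19938 mouse genes that had a probe set of their own, and all 8 were measured. Where a gene had several such probe sets, one was chosen by its highest mean signal over the 9 arrays, which among the 8 concerned only Cd47. Dendritic cell (DC) progenitors were sorted from the bone marrow of heterozygous Zbtb46-GFP reporter mice, in which green fluorescent protein reports transcription of the classical DC factor Zbtb46. There were 3 populations with 3 arrays each, given in the order of the title of a study that set out to follow DC progenitors along a developmental axis: Zbtb46- CDPs, the common DC progenitors without reporter signal; Zbtb46+ CDPs, the common DC progenitors with reporter signal; and Pre-CD8 DCs, the precursors of the CD8 lineage now called cDC1. All 9 arrays carried the reporter allele, none came from animals without it, and all cells were sorted into medium with Flt3L-conditioned supernatant. The labels give no sort gates, ages or sexes, nor whether each array stands for its own mouse or a pool, so each p-value measures only the spread between these arrays.

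SIRPα, the product of Sirpa, is a surface receptor whose tail carries immunoreceptor tyrosine-based inhibitory motifs (ITIMs). When it meets CD47 on another cell, the tail recruits the phosphatases SHP-1 and SHP-2 and engulfment is held back. In mice SIRPα is also the surface marker by which cDC2 are told from cDC1. Siglecs recognise sialic acid at the ends of glycans, and most of them signal through similar motifs. CD22 and Siglec-G restrain B cell receptor signalling, Siglec-E is a receptor of mouse neutrophils and macrophages, and Siglec-1 (sialoadhesin) is an adhesion receptor of tissue macrophages. CD300a binds phospholipids exposed on dying cells.

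Values are log2 RMA signals unless a fold is named, and a difference is called when limma's adjusted p over all genes is under 0.05. As a guide to background, the 95th percentile of 1207 olfactory, vomeronasal and trace amine receptor genes was taken on each array, and it ran from 6.40 to 7.10. The labelled populations differed in some of their defining genes, though not in every comparison. Zbtb46 itself, the gene of the sort, averaged 6.53 ± 0.34 in Zbtb46- CDPs, 7.24 ± 0.23 in Zbtb46+ CDPs and 7.51 ± 0.11 in Pre-CD8 DCs (SD, n = 3 each). It exceeded the receptor gene level on 1 of 3 Zbtb46- arrays, and was not called between Pre-CD8 DCs and Zbtb46+ CDPs (0.27, adjusted p = 0.463, limma). The cDC1 receptor gene Clec9a averaged 9.10 ± 0.55, 9.41 ± 0.06 and 11.29 ± 0.05 in the same order. Between the CDP populations it was not called (0.32, adjusted p = 0.375, limma). The CDP arrays numbered 1 stood apart from the rest: Xist was at 5.59 in that Zbtb46- array and at 5.30 in that Zbtb46+ array, against 11.85 to 12.29 in the other 7. The same arrays had the highest signals of the neutrophil genes Ngp, S100a8, S100a9, Camp, Ltf, Lcn2 and Fcnb. Ngp, a granule protein gene, was at 12.36 in the Zbtb46+ array and 10.48 in the Zbtb46- array. Such transcripts were not confined to them. Ngp was at 8.30 and 8.54 in replicates 1 and 3 of the Pre-CD8 DCs, against 5.78 in replicate 2. Other genes of the neutrophil marker list ran differently. Csf3r and Mmp8 were at 8.85 and 6.14 in replicate 1 of the Zbtb46+ CDPs, under every Zbtb46- array. That Zbtb46+ array also had the eosinophil gene Prg2 at 9.32, against 6.02 to 6.72 on the other arrays. For the 8 genes, results that the CDP arrays numbered 1 touch are given with and without them, and for other named genes where leaving them out ended a call or moved a called difference by over 1.5 times. Without them Zbtb46 itself differed between the CDP populations by 0.45 (adjusted p = 0.0891, limma), against 0.71 with them (adjusted p = 0.0261).

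Sirpa and its ligand behaved differently across the populations. Sirpa was high in both CDP populations and low in Pre-CD8 DCs. Its log2 signals were 10.94, 10.89 and 10.85 in Zbtb46- CDPs, 10.65, 10.18 and 10.16 in Zbtb46+ CDPs, and 7.78, 7.80 and 7.68 in Pre-CD8 DCs. The values of the 3 populations did not overlap. Sirpa fell 5.97-fold in Pre-CD8 DCs relative to Zbtb46+ CDPs (log2 difference -2.58, SE 0.125, adjusted p = 8.74e-06, limma) and 8.83-fold relative to Zbtb46- CDPs (-3.14, adjusted p = 5.61e-07, limma). In bulk samples, fewer cells with the transcript and less transcript per cell cannot be told apart. Even in Pre-CD8 DCs the signal lay above the sensory receptor gene level on all 3 arrays.

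Between the CDP populations the difference in Sirpa was smaller and depended on single arrays. It fell by 0.56 on the log2 scale in Zbtb46+ CDPs (95% interval -0.85 to -0.28, adjusted p = 0.0167, limma). The call was lost when only these 2 populations were fitted (-0.56, adjusted p = 0.0602, limma), without replicate 1 of the Zbtb46- CDPs (-0.54, adjusted p = 0.0611, limma), without replicate 2 of the Zbtb46+ CDPs (-0.49, adjusted p = 0.0613) and without replicate 3 of the Zbtb46+ CDPs (-0.48, adjusted p = 0.0528). With both CDP arrays numbered 1 left out it was kept (-0.70, adjusted p = 0.000724, limma). Within the arrays numbered 1, a single array per population, the difference was -0.29.

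Cd47, by contrast, was bright in every population and no comparison called it. Its signals were 12.22, 12.22 and 12.16 in Zbtb46- CDPs, 11.91, 12.00 and 12.06 in Zbtb46+ CDPs, and 12.10, 12.21 and 12.01 in Pre-CD8 DCs. The Zbtb46+ arrays all lay just under the Zbtb46- arrays, by a mean of 0.21 (95% interval of the difference -0.38 to -0.03, adjusted p = 0.11, limma). Pre-CD8 DCs overlapped with both CDP populations, and their difference from Zbtb46- CDPs had a 95% interval of -0.27 to 0.08. A second Cd47 probe set averaged 10.99, 10.87 and 11.04 in the same order and gave no call either, with adjusted p-values of 0.442 between the CDP populations and 0.41 between Pre-CD8 DCs and Zbtb46+ CDPs.

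**Figure D1:**
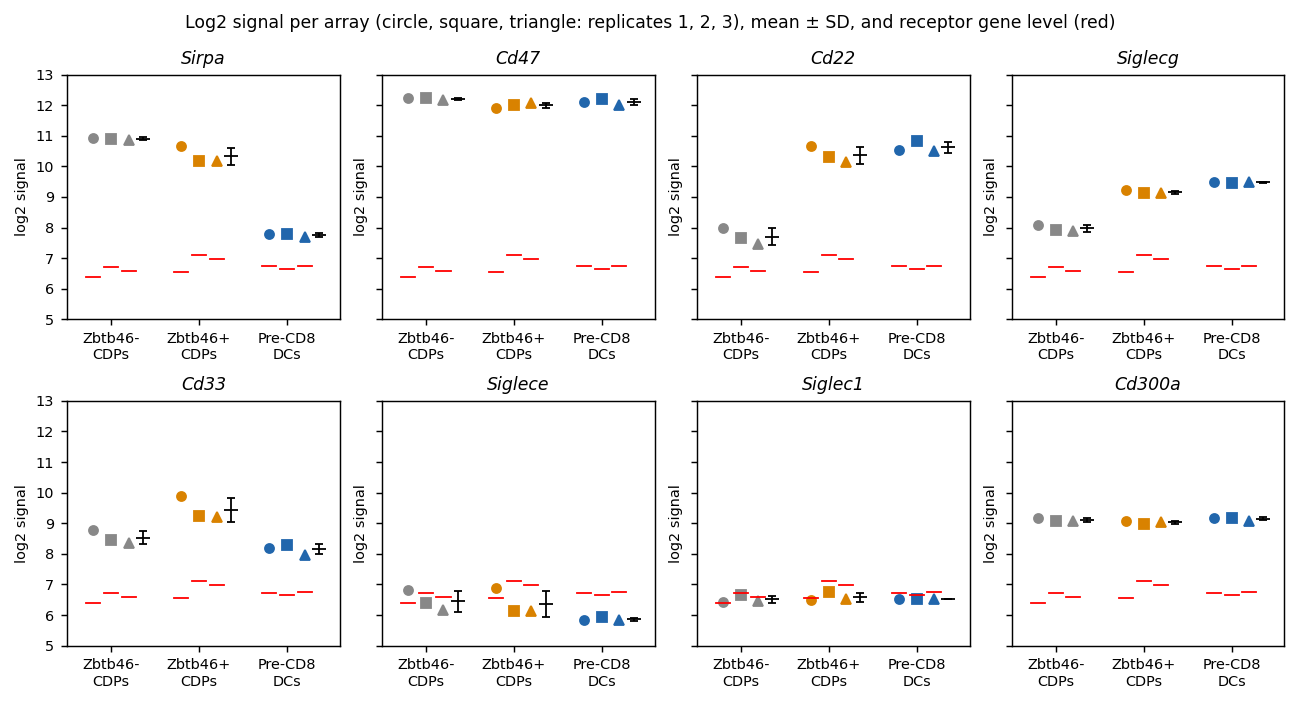
Log2 signal of the 8 genes on each array, with Zbtb46- CDPs at the left of each panel, Zbtb46+ CDPs in the middle, and Pre-CD8 DCs at the right. Circles, squares and triangles are replicates 1, 2 and 3, black bars are the mean ± SD of 3 arrays, and red ticks mark the 95th percentile of sensory receptor genes on that array. Sirpa drops to 7.75 in Pre-CD8 DCs while Cd22 and Siglecg are higher in Zbtb46+ CDPs and Pre-CD8 DCs than in Zbtb46- CDPs, and Siglece and Siglec1 lie near the red ticks.

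Cd22 and Siglecg, the Siglecs best known from B cells, were higher in Zbtb46+ CDPs and Pre-CD8 DCs than in Zbtb46- CDPs. Cd22 signals were 7.99, 7.65 and 7.46 in Zbtb46- CDPs, 10.66, 10.29 and 10.14 in Zbtb46+ CDPs, and 10.54, 10.84 and 10.51 in Pre-CD8 DCs. The Zbtb46- arrays stood well below all others, and the Zbtb46+ and Pre-CD8 arrays overlapped. Cd22 rose 6.34-fold in Zbtb46+ CDPs relative to Zbtb46- CDPs (log2 difference 2.66, SE 0.171, adjusted p = 3.12e-05, limma). It rose 7.62-fold in Pre-CD8 DCs relative to Zbtb46- CDPs (2.93, adjusted p = 5.11e-06, limma). Between Pre-CD8 DCs and Zbtb46+ CDPs the difference was 0.26 (95% interval -0.12 to 0.65, adjusted p = 0.459, limma). With both CDP arrays numbered 1 left out that difference was 0.41 and passed the test (adjusted p = 0.0463, limma), and the rise between the CDP populations was again 2.66.

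Siglecg showed the same order with a smaller amplitude and a tighter spread. Its signals were 8.10, 7.93 and 7.88 in Zbtb46- CDPs, 9.22, 9.13 and 9.13 in Zbtb46+ CDPs, and 9.49, 9.45 and 9.49 in Pre-CD8 DCs. No arrays of neighbouring populations overlapped. Siglecg rose 2.28-fold in Zbtb46+ CDPs relative to Zbtb46- CDPs (log2 difference 1.19, SE 0.0756, adjusted p = 3.12e-05, limma) and 1.25-fold in Pre-CD8 DCs relative to Zbtb46+ CDPs (0.32, adjusted p = 0.0379, limma). The call of the rise in Pre-CD8 DCs over Zbtb46+ CDPs depended on single arrays and on the fit. In a fit of these 2 populations alone its adjusted p was 0.0508 (0.32, limma). The adjusted p ran from 0.0562 to 0.13 when any of replicates 2 and 3 of the Zbtb46- CDPs, replicates 2 and 3 of the Zbtb46+ CDPs, or the 3 Pre-CD8 DC arrays was left out, with differences of 0.31 to 0.33 (limma). A second quantile normalization gave 0.22 (adjusted p = 0.0853), and an intensity trend with robust moderation left 0.32 with adjusted p = 0.0902 (limma).

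Several genes that define B cells were at background in every population, and others were above it in Zbtb46- CDPs. Of 12 B cell markers 11 were measured. In Zbtb46+ CDPs relative to Zbtb46- CDPs 1 was called higher and 2 lower, beside 3.85% and 10.6% of all genes. Cd79a, Ms4a1, Pax5, Ebf1 and Vpreb3 lay at or below the sensory receptor gene level on all 9 arrays. On all Zbtb46- arrays 5 markers lay above it, namely Cd79b, Cd24a, Blnk, Vpreb1 and Igll1. In each of the other populations 2 did so on all arrays, Cd79b and Cd24a. The level itself differed between arrays. It was 6.40, 6.71 and 6.59 in Zbtb46- CDPs, 6.56, 7.10 and 6.97 in Zbtb46+ CDPs, and 6.73, 6.66 and 6.76 in Pre-CD8 DCs. Igll1 averaged 6.84 in both CDP populations, and Vpreb1 was not called between them (-0.38, adjusted p = 0.3, limma). The summed linear signal of the list ran from 5679 to 6042 in Zbtb46- CDPs, from 7696 to 9641 in Zbtb46+ CDPs and from 9545 to 10249 in Pre-CD8 DCs. That sum is carried by Cd24a, which DCs also express and which rose by 0.74 in Zbtb46+ CDPs relative to Zbtb46- CDPs. Cd79b, a B cell receptor signalling chain, went the other way and fell by 0.52 in Zbtb46+ CDPs relative to Zbtb46- CDPs (adjusted p = 0.00644, limma). The adaptor gene Blnk was also called lower (adjusted p = 0.00947, limma), with signals not above the sensory receptor gene level in Zbtb46+ CDPs and of 7.44, 6.79 and 6.77 in Zbtb46- CDPs, so close to background that no size is given. The part of such cells in the rise of Cd22 and Siglecg was not tested beyond these values.

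**Figure D2:**
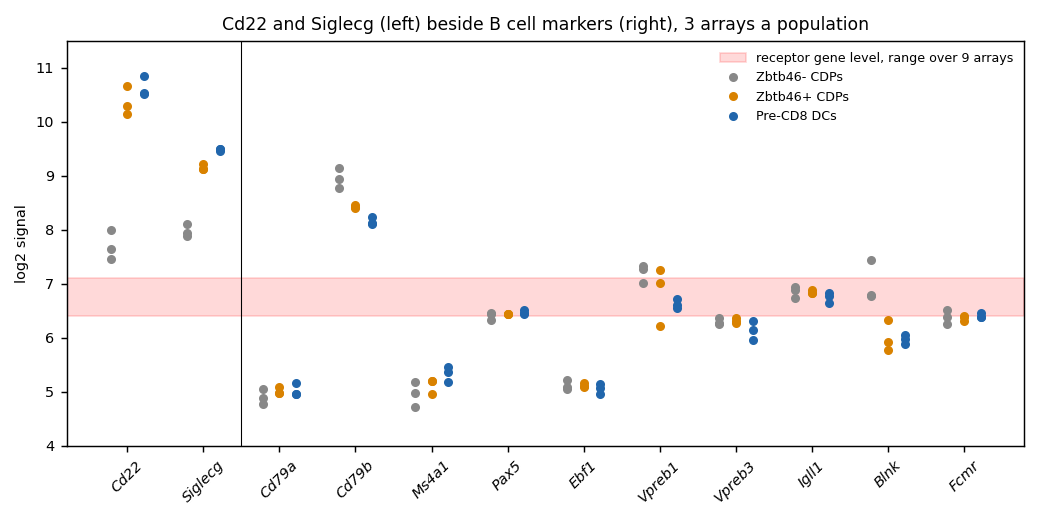
Log2 signal of Cd22 and Siglecg (left of the line) beside B cell markers (right of it), with 3 arrays for each of the 3 populations, coloured as in the legend. The shaded band is the range over 9 arrays of the 95th percentile of sensory receptor genes, 6.40 to 7.10, and Cd79a, Ms4a1 and Ebf1 lie beneath it in every population. Cd24a, which is far brighter, is not drawn.

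The starts of Cd22, Siglecg and Cd33, the Siglec members whose transcripts changed, are shown from RefSeq's table for GRCm38.p6, each running from 250 bases before the annotated start to 50 bases after it and read on the strand of the gene. Capitals mark AGGAAG, the core of sites bound by the myeloid factor PU.1 and its relatives, or CACCTG, an E-box variant, on either strand (CTTCCT and CAGGTG are their reverse complements).
Cd22, chr7:30878979-30879278, minus strand: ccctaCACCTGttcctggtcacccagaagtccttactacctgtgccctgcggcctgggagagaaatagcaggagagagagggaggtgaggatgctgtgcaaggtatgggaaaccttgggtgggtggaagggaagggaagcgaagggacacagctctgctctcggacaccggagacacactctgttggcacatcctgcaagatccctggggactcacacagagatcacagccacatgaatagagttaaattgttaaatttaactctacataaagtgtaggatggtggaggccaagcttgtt
Siglecg, chr7:43407989-43408288, plus strand: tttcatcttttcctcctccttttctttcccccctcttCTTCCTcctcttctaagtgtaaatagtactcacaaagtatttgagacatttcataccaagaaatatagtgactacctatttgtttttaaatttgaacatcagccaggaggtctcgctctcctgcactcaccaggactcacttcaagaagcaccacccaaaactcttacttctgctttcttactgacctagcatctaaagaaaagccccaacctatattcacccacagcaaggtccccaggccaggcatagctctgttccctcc
Cd33, chr7:43533122-43533421, minus strand: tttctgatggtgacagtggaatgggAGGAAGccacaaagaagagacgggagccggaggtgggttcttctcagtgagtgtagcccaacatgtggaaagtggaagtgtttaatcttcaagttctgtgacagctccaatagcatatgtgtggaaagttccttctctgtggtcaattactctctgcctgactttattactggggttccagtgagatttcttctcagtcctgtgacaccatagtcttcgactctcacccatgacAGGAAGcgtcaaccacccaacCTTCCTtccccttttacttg

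Of the 8 genes 6 were matched in that table, Sirpa and Siglec1 being the others. Siglecg and Cd47 each have a second start there, neither shown nor searched. AGGAAG occurs at 3 places in the Cd33 window and at 1 in that of Siglecg, and CACCTG at 1 in that of Cd22. The windows of Siglece and Cd300a, genes that no comparison of the main fit called, also hold AGGAAG, and that of Cd47 holds neither. Of all 32851 promoters of this length 35.4% hold AGGAAG and 20.2% hold CACCTG on either strand, so these matches are common ones. The AP-1 motif TGANTCA, an Ets-IRF composite motif and an IRF repeat motif, searched on both strands, are not in these windows, and they occur in 7.81%, 2.72% and 3.44% of all promoters. Siglecg, Cd33 and Siglece lie on 1 chromosome, with 9 coding genes between Siglecg and Cd33 and 4 between Cd33 and Siglece.

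Cd33, a Siglec of myeloid cells, was highest in Zbtb46+ CDPs. Its signals were 8.78, 8.46 and 8.37 in Zbtb46- CDPs, 9.89, 9.24 and 9.19 in Zbtb46+ CDPs, and 8.18, 8.29 and 7.97 in Pre-CD8 DCs. All Zbtb46+ arrays lay above all others. Cd33 rose 1.87-fold in Zbtb46+ CDPs relative to Zbtb46- CDPs (log2 difference 0.90, SE 0.192, adjusted p = 0.0136, limma) and fell 2.44-fold in Pre-CD8 DCs relative to Zbtb46+ CDPs (-1.29, adjusted p = 0.00478, limma). Pre-CD8 DCs and Zbtb46- CDPs differed by -0.38 (95% interval -0.82 to 0.05, adjusted p = 0.278, limma). The rise between the CDP populations lost its call without replicate 3 of the Zbtb46- CDPs (0.82, adjusted p = 0.0586, limma). In both CDP populations replicate 1 was the highest array, by 0.68 in Zbtb46+ CDPs and 0.36 in Zbtb46- CDPs over the mean of the others. These are the arrays with the highest signals of Ngp and the neutrophil genes named with it. The part of neutrophils in the result was not tested beyond leaving out these 2 arrays. After that the rise was 0.80 (adjusted p = 0.00249, limma) and the fall was -1.06 (adjusted p = 0.000738, limma).

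Siglece lay near background, and no comparison called it. Its signals were 6.82, 6.38 and 6.16 in Zbtb46- CDPs, 6.87, 6.14 and 6.12 in Zbtb46+ CDPs, and 5.85, 5.93 and 5.85 in Pre-CD8 DCs. Only replicate 1 of each CDP population exceeded the sensory receptor gene level of its array. Pre-CD8 DCs lay under all CDP arrays, by a mean of 0.58 relative to Zbtb46- CDPs (adjusted p = 0.125, limma), and this difference passed the test with both CDP arrays numbered 1 left out (-0.40, adjusted p = 0.0101, limma), without replicate 1 of the Zbtb46+ CDPs (-0.58, adjusted p = 0.0207) with a block for replicate number (-0.58, adjusted p = 0.0426), with array weights (-0.34, adjusted p = 0.0186) and in a fit of these 2 populations alone (-0.58, adjusted p = 0.0482). Since all 3 Pre-CD8 DC arrays were not above the sensory receptor gene level, the size of the difference in transcript is unknown. The neutrophil marker list, all 12 measured, summed in linear signal to 1612 to 6345 in Zbtb46- CDPs, 1086 to 19163 in Zbtb46+ CDPs and 950 to 1990 in Pre-CD8 DCs. Retnlg, Cxcr2 and Ly6g of that list were at or below the receptor gene level on all 9 arrays. Of the list 0 were called higher and 2 lower, Mmp8 and Csf3r, in Zbtb46+ CDPs relative to Zbtb46- CDPs. The same held for Pre-CD8 DCs relative to each CDP population. Among all genes 10.6% were called lower between the CDP populations. For Pre-CD8 DCs the shares were 1.86% relative to Zbtb46+ CDPs and 9.23% relative to Zbtb46- CDPs.

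Siglec1, the adhesion receptor of tissue macrophages, was not above the sensory receptor gene level in Zbtb46+ CDPs or Pre-CD8 DCs. Its signals were 6.43, 6.64 and 6.45 in Zbtb46- CDPs, 6.49, 6.74 and 6.52 in Zbtb46+ CDPs, and 6.54 on each Pre-CD8 DC array. The populations overlapped, and of the Zbtb46- arrays 1 was above the level. Of 13 macrophage markers, all measured, Vcam1, C1qa, C1qc, Mertk, Spic, Timd4, Cd5l and Mrc1 were at or below that level on all 9 arrays, while 4 were above it on all Zbtb46- arrays. Axl, a receptor kinase gene, was above it on all 9 arrays and fell by 1.03 in Pre-CD8 DCs relative to Zbtb46+ CDPs (adjusted p = 0.0127, limma). Cd163 and Adgre1 were called lower in Zbtb46+ CDPs than in Zbtb46- CDPs (adjusted p = 0.00365 and 0.0187, limma), the call of Adgre1 being lost with both CDP arrays numbered 1 left out (adjusted p = 0.0574). The list summed to 1110 to 1144 in Zbtb46- CDPs, 1102 to 1261 in Zbtb46+ CDPs and 1022 to 1095 in Pre-CD8 DCs.

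Cd300a was well above background and the populations differed little. Its signals were 9.18, 9.08 and 9.08 in Zbtb46- CDPs, 9.07, 8.99 and 9.03 in Zbtb46+ CDPs, and 9.17, 9.18 and 9.09 in Pre-CD8 DCs. The Zbtb46+ arrays were lowest without overlap, yet the differences were only -0.08 relative to Zbtb46- CDPs (95% interval -0.23 to 0.07, adjusted p = 0.428, limma) and 0.12 for Pre-CD8 DCs over Zbtb46+ CDPs (95% interval -0.03 to 0.27, adjusted p = 0.386, limma). The first of these had the opposite sign after a second quantile normalization (0.07, adjusted p = 0.553).

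**Figure D3:**
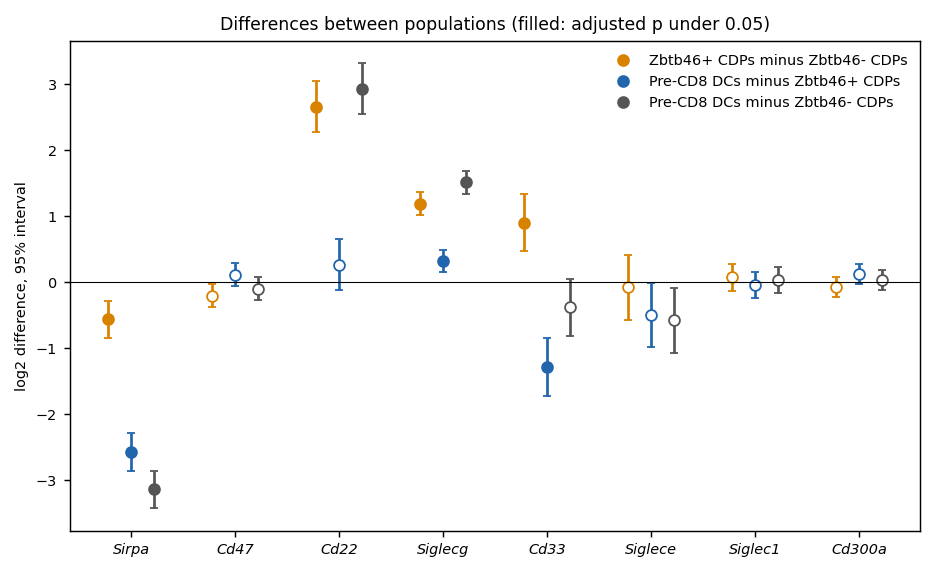
Log2 difference of each of the 8 genes in 3 comparisons, with limma's 95% interval. Filled points passed an adjusted p of 0.05 over all genes and open points did not. Cd22 differs by 2.66 between the CDP populations and by 0.26 between Pre-CD8 DCs and Zbtb46+ CDPs, whereas Sirpa differs by -0.56 and -2.58.

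The moderated F test over the 3 populations called 4 of the 8 genes (Sirpa, Cd33, Siglecg and Cd22), beside 19.1% of all genes. By comparison, 3 of the 8 genes were called higher (Cd22, Siglecg and Cd33) and 1 lower (Sirpa) in Zbtb46+ CDPs relative to Zbtb46- CDPs, where 14.4% of all genes were called, 3.85% higher and 10.6% lower. In Pre-CD8 DCs relative to Zbtb46+ CDPs, 1 was higher (Siglecg) and 2 lower (Sirpa and Cd33), beside 6.62% of all genes, 4.76% higher and 1.86% lower. In Pre-CD8 DCs relative to Zbtb46- CDPs, 2 were higher (Cd22 and Siglecg) and 1 lower (Sirpa), beside 15.7% of all genes, 6.43% higher and 9.23% lower. Arrays did not overlap for 6, 5 and 5 of the 8 genes in these comparisons, beside 29.3%, 22.9% and 33.7% of all genes. The median difference of the 8 was -0.003, 0.035 and -0.032, and that of all genes 0.037, -0.034 and 0.006. The members were chosen with earlier results of these data known, so these shares are a description. The comparisons share populations: the Zbtb46+ arrays serve in the comparison of the CDP populations and in that with Pre-CD8 DCs.

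Where along the sequence the changes fell was tested with a contrast added after the data were seen, that of Zbtb46+ CDPs with the midpoint of the other groups. Cd22 lay 1.20 above the midpoint (SE 0.148, adjusted p = 0.00301, limma), so its difference from Zbtb46- CDPs to Zbtb46+ CDPs was larger than the following one. Siglecg lay 0.44 above it (adjusted p = 0.0066, limma). Sirpa lay 1.01 above it (adjusted p = 0.00178, limma), which for a falling gene means that the larger difference was that between Pre-CD8 DCs and Zbtb46+ CDPs. Cd33 lay 1.10 above it (adjusted p = 0.00671, limma). Of all genes 7.63% were called in this contrast, 1.36% higher and 6.26% lower. Cd47, Siglec1, Siglece and Cd300a did not pass, with adjusted p-values of 0.191 to 0.666.

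The genes most like the called members over the 9 arrays were sought among 826 genes of at least median signal whose highest and lowest group means differed by at least 1. The 9 points fall into 3 populations, so a high correlation says mainly that the group means run alike. For Sirpa they were the myeloperoxidase gene Mpo (Pearson r = 0.998), the protease gene Prtn3 (0.997), the actin-capping gene Capg (0.992), the fractalkine receptor gene Cx3cr1 (0.991) and the vitamin D receptor gene Vdr (0.989). For Cd22 they were Srgap3 (0.998), the ribonuclease gene Rnase6 (0.997) and the annexin gene Anxa6 (0.996). For Siglecg they were the E protein inhibitor gene Id2, Anxa6 and the gelsolin gene Gsn (0.997 each). For Cd33 they were the receptor kinase gene Axl (0.969), the fibronectin gene Fn1 (0.968) and Epb41l4b (0.935). The arrays share their normalization, and the same 9 arrays served every pair.

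Among the other Siglecs, Siglech, a receptor of plasmacytoid DCs, had a called difference and Siglecf, Siglec15 and Mag had none in any comparison. Siglech averaged 8.07 ± 0.32 in Zbtb46- CDPs, 7.86 ± 0.10 in Zbtb46+ CDPs and 7.33 ± 0.14 in Pre-CD8 DCs (SD, n = 3 each). It fell by 0.75 in Pre-CD8 DCs relative to Zbtb46- CDPs (adjusted p = 0.00844, limma). Of the pDC marker list, with 8 of 9 measured, 2 passed the test upward and 2 downward in that comparison, beside 6.43% and 9.23% of all genes. Ccr9 was at least 1.66-fold and Cd209d at least 1.70-fold higher, and Tcf4, the pDC regulator gene, fell by 0.69. The list summed to 4165 to 5120 in Zbtb46- CDPs, 3519 to 3827 in Zbtb46+ CDPs and 3760 to 4240 in Pre-CD8 DCs.

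Of the Cd300 family, 7 of 12 listed relatives of Cd300a were measured, and some of these passed the test. Cd300lg rose with values of 9.50, 9.53 and 9.50 in Zbtb46+ CDPs, against 7.83, 7.80 and 7.93 in Zbtb46- CDPs (log2 difference 1.65, adjusted p = 6.77e-06, limma). It rose again, to 10.06, 10.23 and 10.01, in Pre-CD8 DCs (0.59 relative to Zbtb46+ CDPs, adjusted p = 0.00242, limma). Cd300lb, an activating family member, fell to 6.55, 6.23 and 6.52 in Zbtb46+ CDPs, against 8.76, 7.78 and 8.13 in Zbtb46- CDPs. Its Zbtb46+ values were not above the sensory receptor gene level, so it was at least 2.54-fold lower (adjusted p = 0.000773, limma). Cd300c2 rose by 1.02 in Pre-CD8 DCs relative to Zbtb46+ CDPs. Cd300lf was called higher in Zbtb46+ CDPs than in Zbtb46- CDPs (adjusted p = 0.0118, limma), but it was above the sensory receptor gene level on only 1 of these 6 arrays, replicate 1 of the Zbtb46+ CDPs, and no size is given. In all, 2 of the 7 were higher and 1 lower between the CDP populations, and 2 higher and 0 lower in Pre-CD8 DCs relative to Zbtb46+ CDPs, beside 14.4% and 6.62% of all genes called. The family's sequences are alike, and cross-hybridization between its members was not tested.

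Of the other receptors with inhibitory motifs, 20 of 22 listed genes were measured. Between the CDP populations 3 were higher and 5 lower in Zbtb46+ CDPs, with a median difference of 0.04, the same as over all genes, of which 3.85% were called higher and 10.6% lower. In Pre-CD8 DCs relative to Zbtb46+ CDPs 6 were higher and 2 lower (median 0.22, all genes -0.03), beside 4.76% higher and 1.86% lower among all genes. Pirb, which binds MHC class I molecules, had 8.45, 8.61 and 8.77 in Zbtb46- CDPs, 10.00, 10.48 and 10.45 in Zbtb46+ CDPs, and 11.06, 11.34 and 11.21 in Pre-CD8 DCs. It rose by 1.70 in Zbtb46+ CDPs relative to Zbtb46- CDPs, and in Pre-CD8 DCs it rose by a further 0.89 (adjusted p = 0.000146 and 0.00694, limma). Its probe set may also read the related Pira genes.

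Klrb1b and Btla passed the test between Pre-CD8 DCs and Zbtb46+ CDPs and not between the CDP populations. Btla lay below the midpoint in Zbtb46+ CDPs, at -0.56 (adjusted p = 0.0293, limma), so its later difference was the larger. For Klrb1b no such comparison is given, because both CDP populations were not above the sensory receptor gene level. Klrb1b, an NK receptor family gene, had 8.04, 7.82 and 8.18 in Pre-CD8 DCs and was at least 2.20-fold higher there, since the values of 6.04, 6.18 and 6.01 in Zbtb46+ CDPs were not above the sensory receptor gene level (adjusted p = 1.33e-05, limma). Btla, which restrains lymphocytes through the receptor HVEM, rose by 1.56 (adjusted p = 0.000339, limma), and the Fc receptor gene Fcgr2b rose by 0.86. Pecam1, an adhesion receptor, fell by 0.89 and the collagen receptor gene Lair1 fell by 0.76 in Pre-CD8 DCs relative to Zbtb46+ CDPs. Between the CDP populations, Clec12a, a lectin that senses dead cells, fell by 1.22 and the B cell receptor gene Cd72 fell by 0.83 in Zbtb46+ CDPs. Cd72 was above the sensory receptor gene level on only 1 of 3 arrays of the Zbtb46+ CDPs. Clec4a2, a DC lectin, was called higher there (adjusted p = 0.00955, limma), with 1 of the 6 CDP arrays above the sensory receptor gene level.

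**Figure D4:**
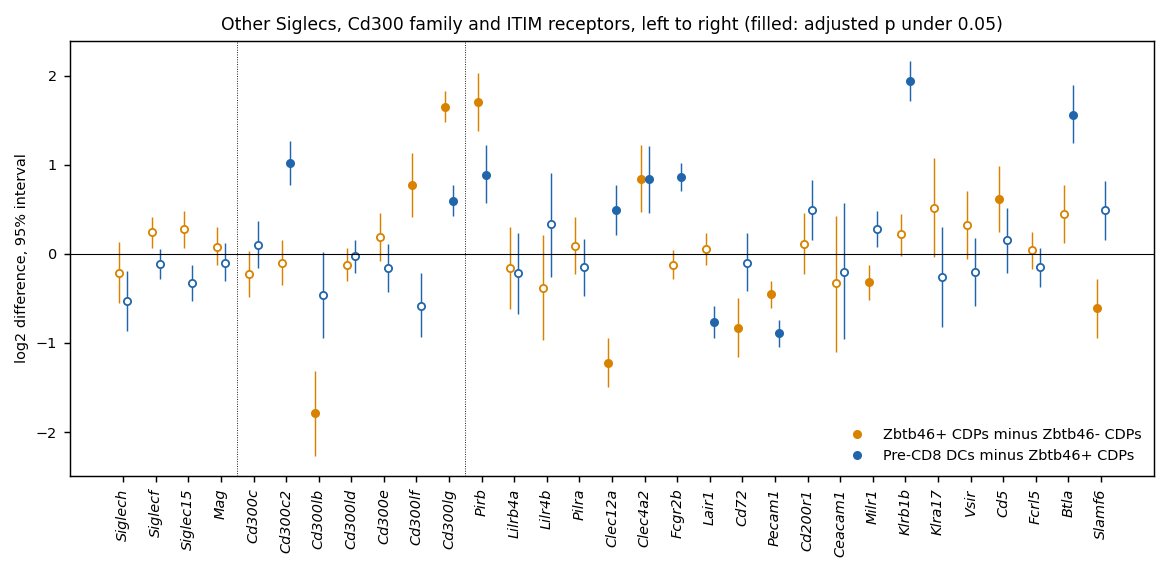
Log2 differences, with limma's 95% interval, of other Siglecs, Cd300 relatives and other receptors with inhibitory motifs, separated by dotted lines. Orange is Zbtb46+ CDPs minus Zbtb46- CDPs, blue is Pre-CD8 DCs minus Zbtb46+ CDPs, and filled points passed an adjusted p of 0.05 over all genes. Pirb and Cd300lg are higher in both comparisons, whereas Klrb1b and Btla are called only in the blue one.

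The SH2 phosphatases that these receptors recruit were not called between neighbouring populations. Ptpn6, which encodes SHP-1, had 11.90, 11.71 and 11.74 in Zbtb46- CDPs, 11.90, 11.83 and 11.90 in Zbtb46+ CDPs, and 12.08, 11.90 and 11.99 in Pre-CD8 DCs. Ptpn11, which encodes SHP-2, differed by -0.01 (95% interval -0.36 to 0.34) between the CDP populations. Inpp5d, the lipid phosphatase SHIP-1, rose by 0.51 in Pre-CD8 DCs relative to Zbtb46- CDPs (adjusted p = 0.0273, limma). Of the 12 phosphatase and adaptor genes, 0 were higher and 1 lower between the CDP populations, and 1 higher and 1 lower in Pre-CD8 DCs relative to Zbtb46+ CDPs, beside 14.4% and 6.62% of all genes. Dok3, an adaptor that dampens immune receptor signalling, fell by 0.62 in Zbtb46+ CDPs relative to Zbtb46- CDPs and fell by 0.94 in Pre-CD8 DCs relative to Zbtb46+ CDPs. Skap2, an adaptor that binds in the SIRPα pathway, rose by 0.40 in Pre-CD8 DCs relative to Zbtb46+ CDPs (adjusted p = 0.0345, limma).

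Src family kinases phosphorylate such motifs, and they were listed with other kinases, among them Syk, Btk and Ptk2b. Of the 11 kinase genes on this list 8 were measured. In Zbtb46+ CDPs 3 were higher than in Zbtb46- CDPs, beside 3.85% of all genes. Fgr rose by 1.13, Fyn by 0.97 and Ptk2b by 0.50. Fgr was above the sensory receptor gene level on only 1 of the 3 Zbtb46- arrays, replicate 1, so the size of its rise is uncertain. Between Pre-CD8 DCs and Zbtb46+ CDPs limma called 0 of the 8, of which 1 had an unadjusted p under 0.05. The adaptors of activating receptors Tyrobp and Fcer1g differed by 0.18 and 0.21 between the CDP populations (95% intervals 0.02 to 0.34 and -0.05 to 0.46) and did not pass the test.

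Of 32 measured genes for enzymes that make, attach and remove the sialic acid read by Siglecs, 1 was higher and 2 lower in Zbtb46+ CDPs relative to Zbtb46- CDPs, beside 3.85% and 10.6% of all genes. In Pre-CD8 DCs relative to Zbtb46+ CDPs limma called 0 of them, beside 6.62% of all genes, and 7 had an unadjusted p under 0.05. St3gal5, which makes the ganglioside GM3, had 8.01, 7.10 and 7.15 in Zbtb46- CDPs, 9.54, 9.24 and 9.26 in Zbtb46+ CDPs, and 10.27, 10.02 and 10.34 in Pre-CD8 DCs. It rose by 1.93 in Zbtb46+ CDPs (adjusted p = 0.000719, limma). Gne and Nans, which make the sialic acid precursor, fell by 0.70 and 0.47, and the call of Nans was lost with both CDP arrays numbered 1 left out (-0.34, adjusted p = 0.0535, limma). Over the whole span from Zbtb46- CDPs, 4 genes were higher in Pre-CD8 DCs, St3gal5, St3gal1 (1.17), St3gal4 (0.74) and St3gal6, the last near background, and 1 was lower, beside 6.43% and 9.23% of all genes. The lower one was Cmah, which converts sialic acid to its glycolyl form. It was above the sensory receptor gene level on only 1 of the 9 arrays, replicate 1 of the Zbtb46- CDPs, so no size is given.

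Of the partners of Cd47 and SIRPα, the family members Sirpb1a, Sirpb1b and Sirpb1c were not analysed here, because their probe sets name several genes, and whether the Sirpa probe set also reads them was not tested. Among 7 measured partners 0 were higher and 2 lower in Zbtb46+ CDPs relative to Zbtb46- CDPs, beside 3.85% and 10.6% of all genes. These were Lrp1, an engulfment receptor that fell by 0.78, and its ligand gene Calr, which fell by 0.55. Thbs1 and Thbs2, thrombospondins that also bind CD47, were at or below the sensory receptor gene level on all 9 arrays. Monocyte markers, 8 of 11 measured, gave 1 higher and 4 lower calls in Pre-CD8 DCs relative to Zbtb46+ CDPs, beside 4.76% and 1.86% of all genes. F13a1 fell by 2.90 and Csf1r, also listed as a marker of the labelled populations, fell by 2.74, whereas Ccr2 rose by 0.65. That list summed to 17491 to 19277 in Zbtb46- CDPs, 12925 to 18202 in Zbtb46+ CDPs and 14809 to 15066 in Pre-CD8 DCs. Its brightest gene was Ms4a6c, which no comparison called, with linear means of 6997.9, 7515.2 and 7337.5 in that order. The part of the list in the fall of Sirpa was not tested. Of the cDC2 markers, all 8 measured, only Clec10a passed the test for Pre-CD8 DCs relative to Zbtb46+ CDPs, at least 2.06-fold lower, beside 6.62% of all genes. In Zbtb46+ CDPs relative to Zbtb46- CDPs 3 were higher and 0 lower, beside 3.85% and 10.6%. Cd209a rose by 2.54 and S100a4 by 1.40, and Irf4 was near background. The call of Irf4 was lost with both CDP arrays numbered 1 left out (adjusted p = 0.0814, limma). In Pre-CD8 DCs relative to Zbtb46- CDPs the same 3 were higher and 2 lower, Clec10a and Mgl2, beside 6.43% and 9.23%. The list summed to 1811 to 2081 in Zbtb46- CDPs, 3795 to 4632 in Zbtb46+ CDPs and 3945 to 4738 in Pre-CD8 DCs.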

How the data were processed

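RNA of 9 sorted samples was measured on mouse whole-transcript gene arrays after labelling with a pico-scale kit, per the labels' protocols. The authors deposited 1 signal intensity per probe set and array, made by RMA in Affymetrix Expression Console, per the submitters' processing notes; versions are not given in the sources used here. They proved linear (7.45 to 20455.6), so log2 was taken, with no further scaling. Of 28853 probe sets 21789 had a single gene symbol, 1621 several and 5443 none in the platform table, which left 19938 genes. The arrays had medians of 110.2 to 118.0 in linear signal. Precision is limited by the 3 arrays per population. limma 3.58.1 (lmFit, eBayes) in R 4.3.3 was fitted to all genes and all 9 arrays with group means only, and p-values were adjusted by Benjamini-Hochberg over all genes.

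The members and lists were chosen with earlier results of these data known. Named are all members, up to 4 called genes with the largest difference per list and comparison, defining markers, and the genes most like called members. Xist, Prg2, Ngp and the neutrophil genes named with Ngp were chosen after their values were seen. Where a population lay at or below the sensory receptor gene level on all its arrays, a difference is given as at least that to the level, or with no size where the other population was not clear of it.

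Residuals of same-numbered arrays correlated by 0.51, 0.42 and 0.36 between the CDP populations, and by -0.03 to 0.17 between CDPs and Pre-CD8 DCs. Replicate 2 of the Zbtb46+ CDPs also correlated by 0.38 with replicate 3 of the Zbtb46- CDPs, and the labels do not say what a number shares. The main fit therefore did not pair the arrays, and a block for replicate number was run only as an alternative. Alternatives were other filters, probe set rules, scalings, moderation, array weights, fits of 2 groups, a replicate block, a stricter threshold and left-out arrays. Tables came from pandas 2.3.3 with numpy 2.4.6 under Python 3.11.15, and figures from matplotlib 3.10.9.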

Additional observations from a re-analysis of the deposited data

How the results depend on the processing

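The calls of Cd22 and Siglecg between the CDP populations and of Sirpa and Cd33 between Pre-CD8 DCs and Zbtb46+ CDPs were kept under every alternative run. Of 688 values of single members under alternatives, 650 kept direction and side of the threshold, 18 lost a call, 7 gained one and 13 changed sign, all of uncalled members: Cd300a between the CDP populations (0.0724) and against the midpoint (0.033), Cd47 (-0.0448) and Siglec1 (0.007) between Pre-CD8 DCs and Zbtb46+ CDPs after a second quantile normalization, Siglec1 between Pre-CD8 DCs and Zbtb46- CDPs without both CDP arrays numbered 1 (-0.0052), and Siglec1 and Siglece with single arrays left out. There Siglec1 ran from -0.0045 to 0.1384 between the CDP populations, from -0.0877 to 0.0365 and from -0.0052 to 0.0962 for Pre-CD8 DCs relative to Zbtb46+ and to Zbtb46- CDPs, and from -0.0205 to 0.1037 against the midpoint, and Siglece ran from -0.3268 to 0.1025 between the CDP populations and from -0.0373 to 0.3366 against the midpoint. Array weights gave 5 called members between Pre-CD8 DCs and Zbtb46- CDPs, and an adjusted p under 0.01 gave 2 between the CDP populations because the threshold is stricter; the cause under array weights was not tested. With a replicate block 4, 3 and 4 members were called in the comparisons of the CDP populations, of Pre-CD8 DCs with Zbtb46+ CDPs and of Pre-CD8 DCs with Zbtb46- CDPs, Siglece (-0.58, adjusted p = 0.0426 in limma) being the added one, and it changed no other member's call. Leaving out single arrays gave 3 to 4, 2 to 3 and 3 to 4 members in these comparisons, 4 in the midpoint contrast and 4 to 5 in the F test. Over all genes the calls numbered 2873, 1319, 3123 and 1521 in the 3 comparisons and the midpoint contrast. Array weights gave 6430, 3062, 6955 and 3568, the stricter threshold 1405, 543, 1877 and 418, both CDP arrays numbered 1 left out 4495, 4066 and 3966 in the comparison of the CDP populations, that of Pre-CD8 DCs with Zbtb46+ CDPs and the midpoint contrast, and fits of only 2 groups 1858 between the CDP populations and 850 between Pre-CD8 DCs and Zbtb46+ CDPs. Leaving out single arrays gave 1793 to 5268, 662 to 2672, 2250 to 4300 and 671 to 3584, each time the most without replicate 1 of the Zbtb46+ CDPs. Counts fell by over 1.5 times between the CDP populations without replicate 1 (1911) or 3 (1793) of the Zbtb46- CDPs, between Pre-CD8 DCs and Zbtb46+ CDPs without replicate 2 of the Zbtb46+ CDPs (860) or replicate 1 (662), 2 (790) or 3 (662) of the Pre-CD8 DCs, and for the midpoint without replicate 3 of the Zbtb46- CDPs (767), 2 of the Zbtb46+ CDPs (671), or 1 (837) or 3 (855) of the Pre-CD8 DCs. A second quantile normalization turned the split of higher and lower calls from 768 and 2105 to 1216 and 1572 between the CDP populations, from 949 and 370 to 749 and 654 between Pre-CD8 DCs and Zbtb46+ CDPs, and from 272 and 1249 to 615 and 797 for the midpoint. Signal over background limits Siglece and Siglec1.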
